A study of Mus musculus with 14 samples.

Results

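A group of 4 genes was examined in each library of a study of hippocampal RNA from newborn mice kept in room air or in high oxygen: Ier3, Apold1, Depp1 and Adm. They were chosen by their measured response, as genes raised by hyperoxia in both wild-type (WT) and Gsdmd knockout (KO) mice. All 4 were found by symbol among the 36118 genes of the deposited table, and all 4 were among the 16637 genes that passed the filter on low counts. Because of this choice, their hyperoxia effects are given as a description with no test, and tests were made of the genotype contrasts and of the covariation between mice within a group. The identifiers are ENSMUSG00000003541 for Ier3, ENSMUSG00000090698 for Apold1, ENSMUSG00000048489 for Depp1 and ENSMUSG00000030790 for Adm.

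The hippocampus of 14 mice, C57/BL6 by their labels and C57BL/6N by the methods of the study, was sequenced, each as its own polyA RNA library. There were 4 WT-RA and 4 WT-O2 animals, and 3 each of KO-RA and KO-O2. RA is room air and O2 is hyperoxia at 85% oxygen. The mice were exposed from postnatal day 1 to day 14, and the tissue is labelled postnatal day 15. WT mice are littermates of the KO mice from matings of heterozygotes. KO mice are homozygous for a small CRISPR/Cas9-derived deletion in Gsdmd, which encodes the pore-forming protein gasdermin D, and the allele is global, so it is carried by every cell type. The mice carry no other allele or agent that the labels name, and sex and litter are not given in the sources used here. Gsdmd had 41 to 63 counts in the WT libraries and 22 to 42 in the KO libraries. These ranges overlap. The counts are summed over the transcripts of the gene, so transcripts with and without the deleted bases are counted together. Library totals lay between 27272270 and 28257496 estimated counts. No pair of libraries agreed within sampling noise.

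Several properties of the libraries bear on every value that follows. Mouse GSD408 is hyperoxia by its title and room air by its treatment field. It was analysed as WT-O2. The contrasts of the 4 genes that use it are also given without it, as are the edgeR list calls printed here that changed. Mouse numbers run between GSD398 and GSD408 for WT animals and between GSD489 and GSD496 for KO animals, so genotype and number range cannot be told apart. Markers of hippocampal and other forebrain neurons were present in every library, with summed levels of 4370 to 8023 CPM (estimated counts scaled to a common library total) over 8 genes. Markers of striatum and thalamus were also present in every library, at 188.8 to 1088 CPM over 11 genes. Summed choroid plexus markers ranged from 37.89 to 3430 CPM over 7 genes, with a KO-RA library at the low end and a KO-O2 library at the high end. In bulk RNA, fewer cells of a type and less RNA per cell cannot be told apart.

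The 4 genes are known as rapidly changing stress-response genes in several tissues. Ier3 encodes an immediate early response protein that is induced by growth factors, NF-kB and p53 and that modulates ERK signalling and cell survival. Apold1 encodes an endothelial early response protein that is induced in vessels of the brain by injury and other stimuli. Depp1, a target of FoxO transcription factors, is raised by fasting and progestin and is linked to autophagy. Adm encodes adrenomedullin, a secreted vasodilator peptide that is a classical target of hypoxia-inducible factor (HIF). Adrenomedullin acts through the receptor Calcrl together with a RAMP coreceptor and is important for the integrity of vessels.

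The 250 bases before the start of each gene are shown because genes that move together may be compared for the motifs in front of them. They were taken from RefSeq with build GRCm38.p6, which is not the build of the counts, and 4 of 4 genes were matched. All 4 lie on the + strand, and capitals mark the letters of each motif found.

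Ier3, chr17:35821463-35821712: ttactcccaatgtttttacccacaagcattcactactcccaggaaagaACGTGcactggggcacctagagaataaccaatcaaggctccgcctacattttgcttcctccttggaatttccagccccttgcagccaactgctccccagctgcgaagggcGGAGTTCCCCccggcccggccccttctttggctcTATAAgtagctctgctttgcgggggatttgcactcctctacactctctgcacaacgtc

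Apold1, chr6:134981751-134982000: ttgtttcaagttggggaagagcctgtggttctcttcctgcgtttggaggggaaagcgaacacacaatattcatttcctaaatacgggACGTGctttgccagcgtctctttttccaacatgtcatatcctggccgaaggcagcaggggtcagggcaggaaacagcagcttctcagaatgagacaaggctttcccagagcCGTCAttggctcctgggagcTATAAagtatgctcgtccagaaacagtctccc

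Depp1, chr6:116650434-116650683: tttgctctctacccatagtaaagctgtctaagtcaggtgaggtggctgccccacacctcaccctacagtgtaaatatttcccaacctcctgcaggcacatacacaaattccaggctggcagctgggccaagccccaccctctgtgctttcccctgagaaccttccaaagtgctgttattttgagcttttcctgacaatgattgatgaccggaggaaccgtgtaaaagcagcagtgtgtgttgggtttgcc

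Adm, chr7:110627407-110627656: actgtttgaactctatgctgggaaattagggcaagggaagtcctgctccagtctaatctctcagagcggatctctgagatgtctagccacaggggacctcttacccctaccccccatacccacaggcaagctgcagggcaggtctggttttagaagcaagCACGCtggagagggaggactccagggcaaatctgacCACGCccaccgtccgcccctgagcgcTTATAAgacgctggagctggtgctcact

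Each window was searched on both strands for 10 motifs, and the share of all 32851 RefSeq promoter windows of this length that hold a motif is given beside it. TATAA was found in Ier3, Apold1 and Adm, with its first base 58, 32 and 27 bases before the start. In Adm a TATAA on the reverse strand, from 28 bases before the start, overlapped it. TATAA was present in 22.8% of all windows. The hypoxia response core ACGTG was found in Ier3 and Apold1 at 202 and 163 bases before the start, and in 16.6% of all windows. The other core, GCGTG, was found at 90 and 54 bases before the start of Adm on the reverse strand, where it is printed as CACGC, and in 28.2% of all windows. Either core was present in 38.6% of windows. An NF-kB motif was found in Ier3 at 92 bases before the start (3.9% of windows), and the cyclic AMP half-site TGACG was found in Apold1 at 52 bases (17.8% of windows), where it is printed as CGTCA. None of the 4 windows held the FoxO motif GTAAACA (3.17% of windows), the AP-1 motif TGANTCA (6.75%), the glucocorticoid half-site AGAACA (16.1%), the Egr motif GCGTGGG, which contains GCGTG (4.3%), or the CArG box (1.47%). The Depp1 window held none of the 10 as searched. Close variants of these letters were not counted, such as GTAAATA in the Depp1 window beside the FoxO letters GTAAACA. The GC content was 54.4% in Ier3, 50.8% in both Apold1 and Depp1 and 56.8% in Adm, beside a median of 52.4% over all windows. A match is a description of these letters and was not tested as a binding site.

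Ier3 was low in room air and higher in every hyperoxia library of both genotypes. Its levels were 4.40, 3.31, 2.01 and 3.19 CPM in GSD398, GSD399, GSD400 and GSD401 of WT-RA. In GSD404, GSD405, GSD406 and GSD408 of WT-O2 they were 8.72, 9.75, 7.33 and 14.7 CPM. No WT-O2 library was as low as any WT-RA library, and GSD408 stood above the other WT-O2 mice. KO-RA mice GSD489, GSD490 and GSD496 had 1.86, 2.27 and 2.46 CPM. KO-O2 mice GSD491, GSD494 and GSD495 had 9.24, 7.48 and 8.89 CPM. The KO groups were again apart, with the lowest KO-O2 level 3.05 times the highest KO-RA level, while in WT this ratio was 1.67. The group means were 3.23 ± 0.976 CPM in WT-RA (SD, n = 4), 10.1 ± 3.19 in WT-O2 (n = 4), 2.20 ± 0.306 in KO-RA (n = 3) and 8.54 ± 0.928 in KO-O2 (n = 3). The fitted log2 fold change of hyperoxia over room air was 1.65 (SE 0.23), or 3.13-fold, in WT and 1.96 (SE 0.27), or 3.88-fold, in KO. By qRT-PCR, the study reported that hyperoxia raised Ier3 in WT and that the knockout prevented this rise. The KO value from the counts differs from that report, and the reason was not tested.

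Apold1 followed the same pattern, with its highest room air level in WT-RA mouse GSD398. The WT-RA levels were 7.13, 4.09, 4.49 and 3.55 CPM, and the WT-O2 levels were 11.6, 14.3, 12.5 and 16.9 CPM, in the mouse order used for Ier3. In KO-RA they were 3.79, 3.74 and 3.56 CPM, and in KO-O2 11.1, 7.74 and 10.2 CPM. The KO-RA mice were close to each other, and neither genotype had a hyperoxia library within its room air range. Means were 4.81 ± 1.59 CPM in WT-RA (SD, n = 4), 13.8 ± 2.34 in WT-O2 (n = 4), 3.70 ± 0.122 in KO-RA (n = 3) and 9.68 ± 1.74 in KO-O2 (n = 3). The log2 fold change was 1.52 (SE 0.19), or 2.87-fold, in WT and 1.39 (SE 0.23), or 2.62-fold, in KO.

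Depp1 had the largest fitted change of the 4 in both genotypes and also the widest spread in a room air group. It was measured at 2.25, 1.87, 0.813 and 1.51 CPM in WT-RA and at 7.99, 8.57, 6.80 and 13.0 CPM in WT-O2. In KO-RA the levels were 1.08, 0.350 and 2.92 CPM, from 29, 10 and 82 counts, and in KO-O2 they were 8.45, 8.22 and 6.94 CPM. The KO-RA mice thus differed by 8.34 times between GSD490 and GSD496, yet all lay below every KO-O2 mouse. Means were 1.61 ± 0.613 CPM in WT-RA (SD, n = 4), 9.09 ± 2.71 in WT-O2 (n = 4), 1.45 ± 1.32 in KO-RA (n = 3) and 7.87 ± 0.813 in KO-O2 (n = 3). The log2 fold change was 2.50 (SE 0.41), or 5.64-fold, in WT and 2.44 (SE 0.47), or 5.42-fold, in KO. Without KO-RA mouse GSD496 the KO value was 3.47.

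Adm was the gene whose hyperoxia libraries varied most. Its WT-RA levels were 1.35, 1.37, 1.52 and 1.29 CPM, a range of 36 to 43 counts. Its WT-O2 levels were 3.30, 5.16, 2.44 and 8.41 CPM, or 69 to 240 counts. The highest WT-O2 mouse, GSD408, had 3.44 times the level of the lowest, GSD406, whereas the WT-RA mice differed little. KO-RA levels were 0.557, 1.05 and 1.32 CPM and KO-O2 levels 6.44, 3.27 and 4.95 CPM, again without overlap. Means were 1.38 ± 0.0975 CPM in WT-RA (SD, n = 4), 4.83 ± 2.65 in WT-O2 (n = 4), 0.974 ± 0.385 in KO-RA (n = 3) and 4.89 ± 1.59 in KO-O2 (n = 3). The log2 fold change was 1.80 (SE 0.35), or 3.49-fold, in WT and 2.32 (SE 0.42), or 4.98-fold, in KO.

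**Figure D1:**
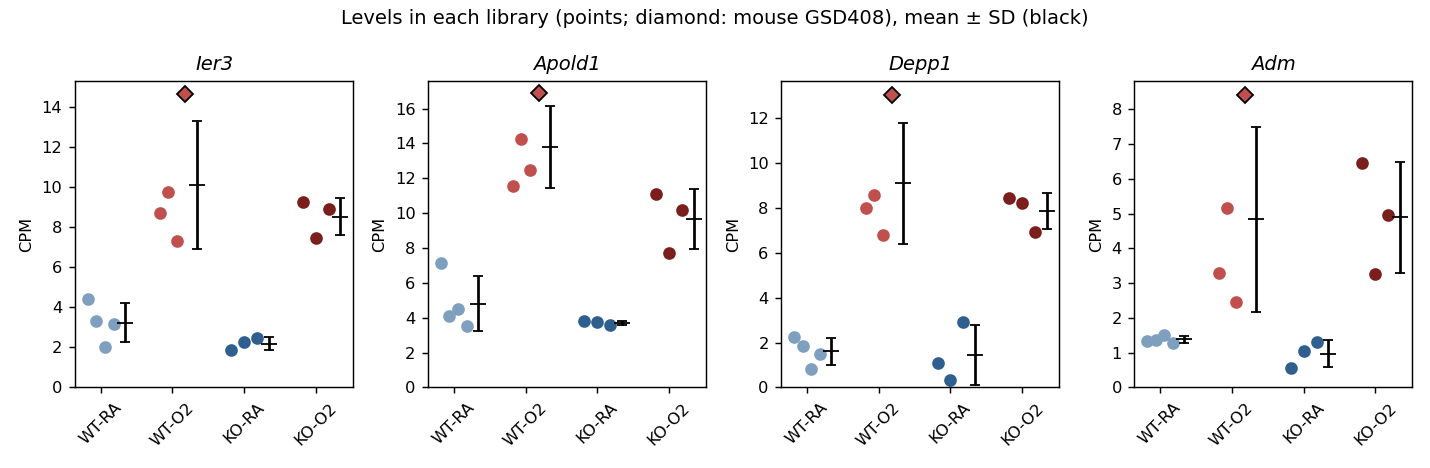
Levels of Ier3, Apold1, Depp1 and Adm in CPM, scaled by TMM, in each of the 14 libraries, by group, with the group mean and SD in black. In each panel every hyperoxia point of a genotype lies above every room air point of that genotype, and mouse GSD408 (diamond) is the highest library.

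For all 4 genes, then, every hyperoxia library of a genotype exceeded every room air library of that genotype. Over all 16637 genes, this held for 2.95% in WT and 5.52% in KO, and since the 4 genes were chosen on these contrasts their count is a description. A gene counts as called where it passed the fold change limit of the study, p lay below 0.05 and q lay below 0.1, and q is the adjusted p of edgeR's quasi-likelihood F-test over all genes. By this rule 4 of 4 were called higher in WT, beside 0.349% of all genes called higher and 0.295% called lower. In KO 1 of 4, Ier3, was called higher, beside 0.00601% of all genes called higher and 0.00601% lower. With DESeq2 in place of edgeR, 4 of 4 were called higher in KO, beside 0.0361% of all genes. Ranked by fold change among the 16637 genes, Depp1, Adm, Ier3 and Apold1 stood at 13, 20, 26 and 29 in WT and at 14, 16, 19 and 31 in KO.

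Of the genes with a mean of at least 1 CPM, 56 were called higher in WT and 44 of these were above 0 in KO. Among these 56, the 4 genes were the first 4 by the smaller of the log2 fold changes in the 2 genotypes. Just inside this order was Apold1 with a smaller change of 1.39. Just outside it was Edn1, which encodes the vasoconstrictor endothelin, with log2 fold changes of 1.30 in WT and 1.20 in KO. Edn1 had means of 3.54 ± 1.38 CPM in WT-RA (SD, n = 4), 8.70 ± 1.49 in WT-O2 (n = 4), 2.85 ± 0.355 in KO-RA (n = 3) and 6.53 ± 1.46 in KO-O2 (n = 3). Maff, a small MAF transcription factor, came next with 1.21 in WT and 0.82 in KO.

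Mouse GSD408 was the highest of the 14 libraries in all 4 genes, and the WT effects were recomputed without it. The log2 fold changes in WT were then 1.41 for Ier3, 1.41 for Apold1, 2.27 for Depp1 and 1.39 for Adm. They stayed above 1 for each gene, and the other 3 WT-O2 mice lay above all 4 WT-RA mice in each. With GSD408 placed in room air, as its treatment field has it, they were 0.64, 0.82, 1.00 and 0.38. The KO effects do not use this mouse's level. Leaving out any 1 of the 14 libraries gave 1.85 to 2.04 for Ier3, 1.28 to 1.53 for Apold1, 1.97 to 3.47 for Depp1 and 2.04 to 2.59 for Adm in KO.

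The difference between the hyperoxia effect in KO and that in WT is derived from the contrasts used to choose the genes, so it is given with its interval and no test. The KO log2 fold change minus the WT one was 0.31 (SE 0.35, 95% interval -0.44 to 1.06) for Ier3 and -0.13 (SE 0.29, -0.76 to 0.49) for Apold1. It was -0.06 (SE 0.62, -1.39 to 1.28) for Depp1 and 0.52 (SE 0.55, -0.65 to 1.68) for Adm. All 4 intervals include 0. The interval for Depp1 is wide enough to hold a difference of more than 2-fold in either direction. Without GSD408 the values were 0.54, -0.02, 0.17 and 0.93, and with GSD408 in room air they were 1.32, 0.57, 1.44 and 1.94.

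The genotype contrasts were not used to choose the genes and were tested. In room air, 0 of 4 genes were called by edgeR, beside 3.75% of all genes called higher in KO and 6.7% called lower. Of the 4, 0 had an unadjusted p below 0.05, beside 3907 of all 16637 genes. DESeq2 also called 0, beside 1840 of all genes. All 4 fitted values lay below 0, and for all 4 the KO-RA and WT-RA libraries overlapped. The log2 fold change of KO-RA over WT-RA was -0.55 for Ier3 (SE 0.27, 95% interval -1.12 to 0.01, edgeR adjusted p = 0.226) and -0.38 for Apold1 (SE 0.22, -0.84 to 0.08, adjusted p = 0.321). It was -0.15 for Depp1 (SE 0.48, -1.18 to 0.88, adjusted p = 0.901) and -0.50 for Adm (SE 0.43, -1.41 to 0.41, adjusted p = 0.545). With GSD408 placed in room air, the values were -1.33 for Ier3, -0.97 for Apold1, -1.43 for Depp1 and -1.51 for Adm, and edgeR called 0 of 4 (adjusted p from 0.113 to 0.294). The Depp1 value was above 0 without GSD398 (0.062), GSD489 (0.019) or GSD490 (0.32). The Ier3 difference depended on mouse GSD400, the WT-RA library with the lowest Ier3. Without that mouse it was -0.72 and was called (edgeR adjusted p = 0.0752), and over all alternatives the adjusted p ranged from 0.0752 to 0.478.

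In hyperoxia, 0 of 4 genes were called by edgeR between KO-O2 and WT-O2, beside 2.51% of all genes called higher in KO and 4.35% called lower. Apold1 alone of the 4 had an unadjusted p below 0.05, beside 3117 of all 16637 genes. DESeq2 called 0 of 4, beside 1317 of all genes. Apold1 was lower in every KO-O2 mouse than in any WT-O2 mouse, with 11.1 CPM in the highest KO-O2 library and 11.6 CPM in the lowest WT-O2 library. Such a separation held for 10.5% of all genes. The log2 fold change of Apold1 was -0.51 (SE 0.20, 95% interval -0.94 to -0.09), with an edgeR adjusted p of 0.166. It was called when the fit held the KO-O2 and WT-O2 libraries alone (-0.50, adjusted p = 0.0805) and without WT-RA mouse GSD398 (-0.51, adjusted p = 0.0496), and over all alternatives the adjusted p ranged from 0.0496 to 0.739. The value was -0.24 for Ier3 (SE 0.23, interval -0.74 to 0.25, adjusted p = 0.645). It was -0.21 for Depp1 (SE 0.39, -1.04 to 0.62, adjusted p = 0.846) and 0.02 for Adm (SE 0.35, -0.72 to 0.75, adjusted p = 0.990). For these 3 genes the KO-O2 and WT-O2 libraries overlapped, and without mouse GSD408 the values of Ier3, Depp1 and Adm were -0.00, 0.02 and 0.43. Without that mouse the Apold1 value was -0.39 (SE 0.21, adjusted p = 0.385). The Adm value was below 0 without GSD404 (-0.13), GSD406 (-0.20) or GSD491 (-0.23), and with library size in place of TMM (-0.0075).

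**Figure D2:**
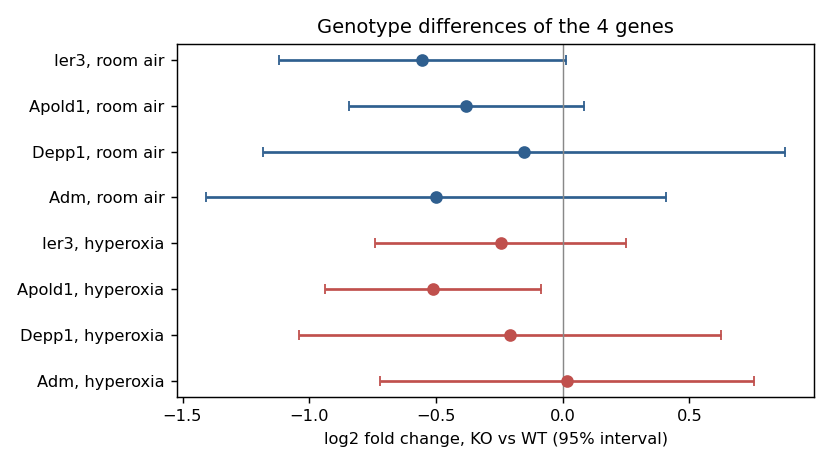
Fitted log2 fold change of KO over WT for the 4 genes in room air (blue) and in hyperoxia (red), with bars for the 95% interval. The interval of Apold1 in hyperoxia, -0.94 to -0.09, is the only 1 of the 8 that does not include 0, and its edgeR adjusted p was 0.166.

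Markers of other cells differed between the genotypes in the same libraries. For comparison, 6.7% of all genes were called lower and 3.75% higher in KO-RA, and 4.35% lower and 2.51% higher in KO-O2. All 7 oligodendrocyte markers were called lower in KO-RA than in WT-RA, at a median of -1.61 on the log2 scale, and 5 of 7 were lower in KO under hyperoxia (median -1.11). Without GSD408 none of the 7 was called in hyperoxia by edgeR, with a median of -0.82 and 7 at an unadjusted p below 0.05. Their summed level was 7914 to 19790 CPM in WT-RA and 3403 to 5475 CPM in KO-RA. Of 11 striatal and thalamic markers, such as the dopamine receptors Drd1 and Drd2, 9 were lower in KO-RA (median -1.82) and 8 in KO-O2 (median -1.78). Of 8 hippocampal and forebrain neuron markers, 6 were higher in KO-RA (median 0.60) and 4 in KO-O2 (median 0.58). Of 8 astrocyte markers, 2 were higher in KO-RA and 2 in KO-O2, with medians of 0.21 and 0.18. The part of these differences in the genotype values of the 4 genes was not tested.

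Vessel markers bear on Apold1 and Adm, which are known from endothelial cells. Of 15 endothelial markers, among them the junction genes Cldn5, Pecam1 and Cdh5, 0 were called by edgeR in any of the 4 contrasts, with 1 to 4 at an unadjusted p below 0.05, and DESeq2 called 0. Their median log2 fold change was -0.06 for hyperoxia in WT, 0.03 for hyperoxia in KO, -0.09 for KO in room air and 0.01 for KO in hyperoxia. The summed endothelial level was 409.4 to 448.1 CPM in WT-RA, 399.3 to 438.6 in WT-O2, 395.3 to 431.7 in KO-RA and 352.1 to 465.3 in KO-O2, so the groups overlapped. Within KO-O2, the mean log2 deviation of these markers from their 14-library mean was -0.29 in GSD494, 0.02 in GSD491 and 0.20 in GSD495. GSD494 also had the lowest Ier3, Apold1 and Adm of that group, but not the lowest Depp1. GSD495 lay below GSD491 in all 4 genes. The part of vessel content in the values of the 4 genes was not tested. Of 10 mural markers, such as Pdgfrb and Rgs5 of pericytes, 0 were called by edgeR in any contrast. Between 0 and 4 of these had an unadjusted p below 0.05, and DESeq2 called 1 in WT hyperoxia and 1 in KO room air. Their medians for hyperoxia were -0.01 in WT and -0.05 in KO.

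Covariation within groups was examined because the differences between mice of 1 group were not used to choose the genes. The deviation of each library from its group mean was taken on log2 CPM, and libraries were permuted within groups. All 6 pairs had a positive Pearson r and a positive Spearman rho over the 14 libraries. None of the 6 passed an adjusted p of 0.05 over the 6 pairs. The strongest pair was Ier3 and Adm, with r = 0.63 (exact permutation p = 0.0106, adjusted 0.0637) and rho = 0.64 (p = 0.0214, adjusted 0.0641). Without the libraries farthest from the median of Ier3, GSD400 and GSD408, this r was 0.72. Ier3 and Depp1 had r = 0.54 (exact permutation p = 0.0281, adjusted 0.0797) and rho = 0.71 (p = 0.0187, adjusted 0.0641), and r was 0.37 without the same libraries. Ier3 and Apold1 had r = 0.60 (exact permutation p = 0.104, adjusted 0.156) and rho = 0.52 (p = 0.103, adjusted 0.154), with r = 0.65 without them. These calls turned on single mice. The adjusted p was 0.0301 for Ier3 and Apold1 without GSD400 (exact permutation, r = 0.72) and 0.00955 for Ier3 and Depp1 without GSD489 (r = 0.56) or GSD490 (r = 0.86). For Ier3 and Adm it was 0.0394 without GSD398 (exact permutation, r = 0.74) and 0.00347 without GSD400 (r = 0.88). Without GSD408 it was 0.493, 0.321 and 0.321 for these 3 pairs.

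The other pairs were weaker. Apold1 and Adm had r = 0.45 (exact permutation p = 0.0398, adjusted 0.0797) and rho = 0.51 (p = 0.0686, adjusted 0.137). Without GSD398 and GSD401, the libraries farthest out in Apold1, this r was 0.70. Depp1 and Adm had r = 0.28 (exact permutation p = 0.453, adjusted 0.453) and rho = 0.32 (p = 0.366, adjusted 0.440), and r was 0.35 without GSD490 and GSD496. Apold1 and Depp1 had r = 0.21 (exact permutation p = 0.397, adjusted 0.453) and rho = 0.22 (p = 0.447, adjusted 0.447), and r was 0.08 without GSD398 and GSD401. Mouse GSD408 lay above its group mean in all 4 genes, by 0.58 for Ier3, 0.31 for Apold1, 0.56 for Depp1 and 0.95 for Adm on the log2 scale. Without it, r ranged from 0.12 to 0.51 over the 6 pairs. The 2 largest deviations were those of Depp1 in KO-RA, at -1.42 in GSD490 and 1.40 in GSD496, and neither mouse deviated as far in the other genes.

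**Figure D3:**
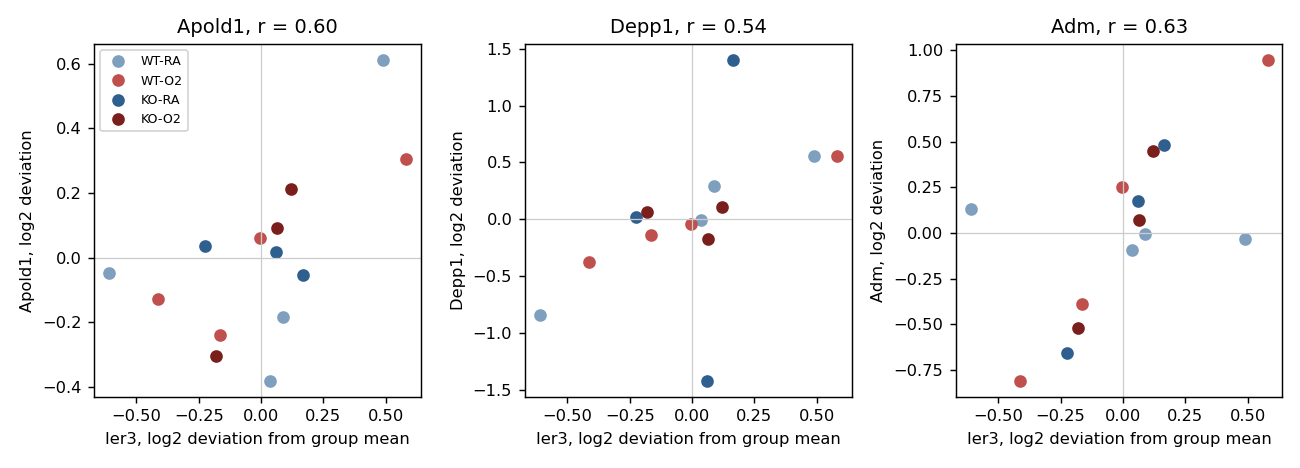
Deviation of each library from its group mean on log2 CPM, for Apold1, Depp1 and Adm (vertical axes) against Ier3 (horizontal axes), coloured by group. All 3 panels slope upward, with r = 0.60, 0.54 and 0.63, and the KO-RA points of Depp1 at 1.40 and -1.42 lie far from the rest.

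Of the other genes of the adrenomedullin system, 11 were listed and 9 were tested, since Adm2 and Calcb had too few counts. In hyperoxia 0 of 9 were called by edgeR in WT and 0 in KO, 2 and 0 had an unadjusted p below 0.05, and DESeq2 called 0 in both. The median log2 fold change of the 9 was -0.06 in WT and -0.02 in KO, beside -0.01 and -0.00 over all genes tested. The receptor Calcrl had -0.06 in WT and -0.05 in KO. Its coreceptor Ramp2 had -0.06 and -0.02, Ramp1, which forms the CGRP receptor with Calcrl, had 0.11 and -0.07, and Ramp3 had -0.72 and 0.00. Among genes that process or clear the peptide, Pam, the amidating enzyme, had 0.11 and 0.01. The scavenger receptor Ackr3 had -0.22 and -0.19, and the peptidase Mme had -0.20 and -0.04. Calca, which encodes calcitonin and CGRP, had 0.17 and 0.00. The calcitonin receptor Calcr had the highest values, 1.09 (SE 0.66) and 1.35 (SE 1.36), from a mean of 0.518 CPM.

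Between genotypes, several of these genes differed. The part of the marker differences between the genotypes in these values was not tested. Ramp3 was lower in KO, with log2 fold changes of -2.82 in room air and -2.09 in hyperoxia (edgeR adjusted p = 0.000717 and 0.00625). Its mean was 22.8 ± 9.69 CPM in WT-RA (SD, n = 4) and 3.22 ± 0.67 in KO-RA (n = 3). Mme was lower in KO with values of -0.75 and -0.59 (adjusted p = 0.00144 and 0.00889), and Calcr with values of -3.05 and -2.79 (adjusted p = 0.0955 and 0.0788). The Calcr values rest on low levels, with means of 0.0585 CPM in KO-RA and 0.16 CPM in KO-O2. Ramp2 was higher in KO under hyperoxia by 0.34 (adjusted p = 0.0697). Without GSD408, Ramp2 and Calcr were not called in hyperoxia. In all, 3 of 9 were called lower and 0 higher in room air, and 3 lower and 1 higher in hyperoxia. Over all genes tested, 6.7% were called lower and 3.75% higher in room air, and 4.35% lower and 2.51% higher in hyperoxia. Adm itself had -0.50 and 0.02 and was called in neither.

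HIF targets are the list most often linked to Adm. Of 20, 0 were called in hyperoxia by edgeR in either genotype. In WT 6 and in KO 4 had an unadjusted p below 0.05, and DESeq2 called 1 in WT and 0 in KO. Of these genes, 14 were above 0 in WT (median 0.10) and 11 in KO (median 0.04). Over all 16637 genes, 8039 were above 0 in WT and 8220 in KO, and 2027 and 809 had an unadjusted p below 0.05. Vegfa, the vascular growth factor, had log2 fold changes of 0.71 in WT and 0.72 in KO (edgeR adjusted p = 0.226 and 0.980), and 0.41 in WT without GSD408. Its levels were 54.2 to 59.1 CPM in WT-RA and 68.2, 106.5, 51.3 and 145.6 CPM in GSD404, GSD405, GSD406 and GSD408 of WT-O2. Vegfa placed the mice in the same order as Adm within WT-O2, KO-O2 and KO-RA, and in another order within WT-RA. Since Vegfa is among the 5 genes most like Adm over these same libraries, this order is a description and was not tested. The orders of the other HIF targets are not given here. Car9, a carbonic anhydrase, had -0.75 in WT and 0.49 in KO.

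Lists tied to the other 3 genes were described in the same way. Of 20 FoxO factors and targets, 1 was called higher in WT hyperoxia, Txnip, an inhibitor of thioredoxin, at 0.67 (edgeR adjusted p = 0.0872). The share of all genes called higher in WT was 0.349%. The Txnip value in KO was 0.62 (adjusted p = 0.782). Without GSD408 the WT value of Txnip was 0.64 and was not called (adjusted p = 0.141). Fbxo32 of the same list went the other way in WT, at -0.60 (edgeR adjusted p = 0.111), and had 0.05 in KO. Without GSD408 it was called lower in WT, at -0.79 (edgeR adjusted p = 0.0157). In WT, DESeq2 called 4 of the list and 8 had an unadjusted p below 0.05. The list's median was -0.05 in WT and -0.01 in KO, and in KO 0 of 20 were called by edgeR, with 3 at an unadjusted p below 0.05 and 0 called by DESeq2. Of 16 glucocorticoid-responsive genes, 0 were called in either genotype, with 2 and 1 at an unadjusted p below 0.05 and 1 and 0 called by DESeq2. Their medians were 0.02 and 0.07, and Ddit4, an inhibitor of mTOR signalling, had 0.51 and 0.42. Of 12 NF-kB targets tested, 0 were called in either genotype, with 1 and 1 at an unadjusted p below 0.05 and 0 called by DESeq2. Their medians were 0.03 and 0.05. Of 13 p53 targets, 0 were called in either genotype, with 2 and 1 at an unadjusted p below 0.05 and 0 called by DESeq2. Their medians were -0.06 and -0.07.

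Genes of vessels under stimulation had the highest medians of the lists described here. Of 15 tested, 11 were above 0 in WT (median 0.16) and 12 in KO (median 0.31). In WT 2 rose, Edn1 at 1.30 (edgeR adjusted p = 0.0574) and the clock-linked repressor Bhlhe40 at 0.68 (adjusted p = 0.0304). Over all genes tested, edgeR called 0.349% higher in WT. DESeq2 called 4 in WT, and 8 had an unadjusted p below 0.05. In KO 0 were called by edgeR, 6 had an unadjusted p below 0.05 and DESeq2 called 1.

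Activity-dependent immediate early genes went the other way from Ier3 and Apold1, which are also classed as early response genes. Of 12, 5 fell in WT hyperoxia, among them Fos at -1.09, Arc at -1.18 and Npas4 at -1.22 (edgeR adjusted p = 0.00522, 0.00592 and 0.0413), and 0 rose. Over all genes tested, edgeR called 0.295% lower in WT and 0.00601% lower in KO. DESeq2 called 9 of the 12 in WT, and 9 had an unadjusted p below 0.05. None of the 12 was above 0 in WT, and their median was -0.68. In KO 1 of 12, Fos, fell, at -1.22 (adjusted p = 0.0121), while DESeq2 called 3 and 6 had an unadjusted p below 0.05. The KO median was -0.37, with 1 gene above 0. Of the 3 other Ier-named genes, Ier5 fell in WT at -0.60 (adjusted p = 0.0878) and had -0.01 in KO. Without GSD408 the WT value of Ier5 was -0.58 and was not called (adjusted p = 0.141). Ier2 had -0.29 in WT and -0.24 in KO.

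**Figure D4:**
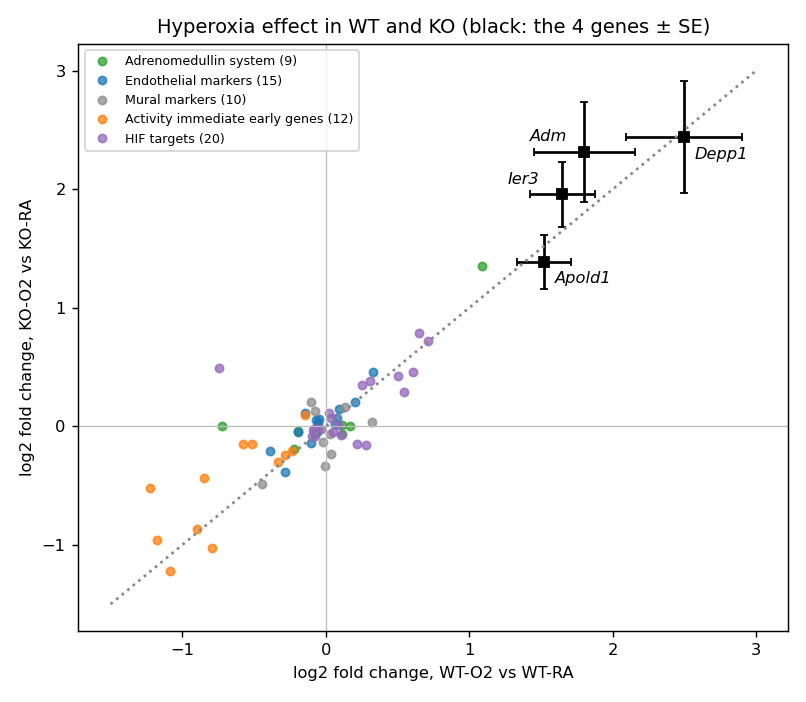
Fitted log2 fold change of hyperoxia over room air in WT (horizontal axis) and KO (vertical axis) for the 4 genes (black squares, bars are SE) and for the genes of 5 lists (coloured points). The dotted line marks equal changes. Depp1 at 2.50 and 2.44 lies farthest out, and the activity genes lie below 0 in WT. Over both axes the endothelial markers lie between -0.39 and 0.46 and the mural markers between -0.49 and 0.32.

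Markers of the remaining cell types gave 0 calls for hyperoxia by edgeR and by DESeq2 in both genotypes. In WT, 1 of 7 oligodendrocyte, 4 of 6 erythroid, 0 of 7 choroid plexus, 0 of 9 microglial, 2 of 8 astrocyte, 1 of 8 hippocampal and 0 of 11 striatal and thalamic markers had an unadjusted p below 0.05. In KO 0 did in each of these lists. Median log2 fold changes in WT were -0.63 for oligodendrocytes, -0.58 for erythroid cells, -0.31 for choroid plexus, 0.05 for microglia, 0.06 for astrocytes, 0.06 for hippocampal neurons and -0.18 for striatum and thalamus. In KO they were -0.11, -0.06, -0.45, 0.03, 0.05, 0.05 and -0.11. The oligodendrocyte markers, all below 0 in WT, and the 4 genes moved in opposite directions there, and the part of those cells in the values of the 4 genes was not tested.

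The genes most like each of the 4 were found by Pearson r of log2 CPM over the 14 libraries among 14467 genes of at least 1 CPM. These r values are descriptions, since the points share 4 groups and the exposure on which the genes were chosen. Ier3 had r = 0.95 with Apold1, 0.94 with Adm and 0.93 with Depp1, which were all among its 5 nearest. Some of the other pairs ranked lower. Apold1 was rank 6 for Adm (0.88), and Depp1 was rank 9 for Apold1 (0.87) and rank 10 for Adm (0.86). By Spearman rho, Apold1 was rank 16 for Ier3 and 21 for Depp1, and Depp1 was rank 25 for Apold1. Edn1 was among the 5 nearest of Ier3 (0.93) and of Depp1 (0.85). For Apold1, the next after Ier3 were Tbcd (0.93), Maff (0.91) and Fchsd2 (0.90). For Depp1, Suz12 (0.87) stood between Apold1 (0.87) and Adm (0.86). For Adm, Hic1 (0.93), Maff (0.90), Ankrd37 (0.89) and Vegfa (0.89) followed Ier3. The list of the 50 most alike shared 14 genes over all 4, among them Edn1, Maff, Hic1, Ankrd37, Fchsd2, Ddit4 and Bhlhe40. Ranked by Spearman rho instead, 34 of the 50 were shared for Ier3, 34 for Apold1, 28 for Depp1 and 32 for Adm.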

How the data were processed

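Hippocampal polyA RNA of 14 mice was sequenced as paired-end reads, 1 library per mouse. The authors deposited estimated counts per gene, made with kallisto against GRCm39 and summed with tximport. Versions and count scaling are not given in the sources used here, and 40.8% to 43% of the values per library are not whole. Symbols were given to 35825 of 36118 genes.

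Groups were taken from the sample titles. Counts were rounded, filtered with filterByExpr, scaled by TMM and modelled in R 4.3.3 with edgeR 4.0.16 on all 14 libraries with 1 coefficient per group. The quasi-likelihood F-test was two-sided, with Benjamini-Hochberg adjustment over 16637 genes. The SE was the log2 fold change divided by the root of F. CPM are TMM-scaled, and log2 CPM has a prior count of 2. Correlations within groups were tested with 20736 exact permutations, two-sided, in Python 3.11.15. Fits were tested on simulated data.

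The 4 genes and the gene lists were chosen with earlier results of these data known. The genes named are the 4, the adrenomedullin system, list genes called in any contrast or among the 2 largest WT changes at 1 CPM, the first 3 markers of each list, the 5 most like each gene, and Gsdmd. Not every gene that the rule covers is reported here. Replicates are separate mice. Each value of the 4 genes rests on 10 to 482 counts, and each group on 3 or 4 mice, which limits the precision. The GENCODE M21 annotation gave none of the 4 exonic bases shared with another gene. Alternatives were DESeq2 1.42.0, other scalings and filters, fits of 2 groups, GSD408 as room air, a prior count of 0.5, and each library left out in turn. The gene lists without GSD408 were added after the data were seen.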

Additional observations from a re-analysis of the deposited data

How the results depend on the processing

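Of 518 values of 26 results under alternatives, 487 kept their direction and their side of the threshold or moved by less than the spread between mice. With mouse GSD408 as room air, the WT hyperoxia effects were 0.64 for Ier3, 0.82 for Apold1, 1.00 for Depp1 and 0.38 for Adm. The KO minus WT differences of that effect were then 1.32, 0.57, 1.44 and 1.94, Depp1 in KO-O2 over WT-O2 was 0.016, and the within-group r was 0.90 for Ier3 and Apold1, 0.83 for Ier3 and Depp1, 0.87 for Ier3 and Adm and 0.83 for Apold1 and Adm. These follow from moving the library with the highest levels. With only the KO-O2 and WT-O2 libraries in the fit, Apold1 was called at -0.50, and with library size only, Adm was -0.0075 there. The cause was not tested.

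Leaving out 1 library at a time, the hyperoxia effect of Depp1 in KO ranged from 1.97 to 3.47 and its difference from WT from -0.53 to 0.97. KO-RA over WT-RA ranged from -0.72 to -0.36 for Ier3 and from -1.17 to 0.32 for Depp1, above 0 without GSD398 (0.062), GSD489 (0.019) or GSD490. KO-O2 over WT-O2 ranged from -0.62 to -0.38 for Apold1, which was called without GSD398 (-0.51), from -0.32 to 0.023 for Depp1, above 0 without GSD408, and from -0.23 to 0.43 for Adm, below 0 without GSD404 (-0.13), GSD406 (-0.20) or GSD491. Within groups, r ranged from 0.40 to 0.72 for Ier3 and Apold1, passing an adjusted p of 0.05 without GSD400. It ranged from 0.40 to 0.86 for Ier3 and Depp1, passing without GSD489 (0.56) or GSD490, and from 0.41 to 0.88 for Ier3 and Adm, passing without GSD398 (0.74) or GSD400.

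Over all genes, edgeR called 107 in WT hyperoxia and 2 in KO. DESeq2 called 310 and 13, fits of 2 groups 20 and 4, and GSD408 as room air 6 and 0 by edgeR, where 725 KO genes had an unadjusted p below 0.05. No filter gave 6 in KO. Leaving out 1 library gave 13 to 272 in WT and 1 to 4 in KO. The genotype counts, 1738 in room air and 1142 in hyperoxia, ranged from 1076 to 1929 and from 675 to 1335. No paired analysis was made, because each library is a separate mouse and litter is not given in the sources used here. Counts per library limit the room air values of Depp1 (10 to 82) and Adm (15 to 43) most.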
